A study of Rattus norvegicus with 244 samples.

Results

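The genes described here are 9 genes of interferon response and antigen presentation: Psmb8, Psmb9, Tap1, Tap2, B2m, Cd74, Irf1, Mx1 and Mx2. They were chosen by symbol, and every probe set annotated to 1 of these symbols alone was taken from the 3 array types, called A, B and C here. This gave 24 probe sets of 26202, for 9 genes of the 10969 with a single symbol. Each gene was represented by its brightest probe set on average, and its other probe sets served as a check. Mx1 and Tap2 had 1 probe set each and thus no such check. All 9 genes passed the filter on low values in both regions.

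RNA came from the rat raphe, a brainstem region whose neurons project to the spinal cord, and from the rat somatomotor cortex, in a study of spinal cord trauma and the tracts that descend to the cord. Each region had 4 naive samples, 24 samples of rats with moderate spinal cord injury (4 for every time: 4 h, 24 h, 7 d, 14 d, 28 d or 3 months) and 12 sham samples with laminectomy alone (2 for every time). Further sham samples at 30 min (1 raphe, 2 cortex) and at 72 h (1 cortex) entered only the estimate of the spread. In the type A fits the raphe had 11 sham samples, because replicate 1 of sham raphe at 3 months was measured on types B and C only, and 3 naive raphe samples were on type C. The labels name sham and naive raphe as raphe magnus and injured raphe as raphe, give no strain, age or sex and leave unsaid whether each sample was its own animal. The p-values therefore measure the spread between these samples, which may be technical. The data are 244 arrays of 84 samples, given as linear signals, 1 for each probe set, and the number of arrays limits the precision. Differences below are differences of log2(signal + 32), with ± as the standard error, and "called" means an adjusted p under 0.05 in limma over all probe sets tested.

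Class I antigen presentation starts when the proteasome cuts proteins of the cell into peptides. Interferon gamma induces the catalytic subunits Psmb8 and Psmb9, which replace constitutive subunits and form the immunoproteasome. Tap1 and Tap2 form the transporter that carries the peptides into the endoplasmic reticulum, where they are loaded onto class I molecules that B2m, the shared light chain, holds in shape. Cd74 is the invariant chain of class II molecules and is made in the brain mainly by microglia and macrophages. Irf1 is a transcription factor that interferon gamma induces and that acts on the promoters of several of the others. Mx1 and Mx2 are GTPases with antiviral activity, induced by type I interferon. In the resting brain many of these genes are expressed at low levels, and they rise with microglial activation, infection and injury near the lesion. B2m was bright here even in naive raphe, at 5189 to 9614, as was the brightest probe set of Cd74, at 1625 to 3070.

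The promoters of 4 of the genes are shown because they hold a sequence motif through which interferon can act. RefSeq promoter windows of build GRCr8 (250 bases before to 50 bases after the start) were present for 8 of the 9 genes, with none for Mx2. Psmb8, Psmb9, Tap1 and Tap2 lie together on chromosome 20. The starts of Tap1 and Psmb9 lie 457 bases apart on opposite strands, and their windows share 44 bases. Both strands were searched for GAAANNGAAA, the core of the interferon-stimulated response element that IRF proteins bind. Capitals mark the matches, which for Psmb8 and Tap1 show the motif read from the other strand, and each sequence runs 5′ to 3′ along its gene.

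Psmb8, chr20:4656982-4657281, minus strand: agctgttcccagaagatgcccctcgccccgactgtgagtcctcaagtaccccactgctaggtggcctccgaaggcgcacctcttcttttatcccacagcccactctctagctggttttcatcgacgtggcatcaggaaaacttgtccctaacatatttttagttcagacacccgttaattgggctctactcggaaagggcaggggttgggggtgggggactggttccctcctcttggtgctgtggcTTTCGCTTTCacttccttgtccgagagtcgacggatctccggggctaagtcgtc
B2m, chr3:129549080-129549379, plus strand: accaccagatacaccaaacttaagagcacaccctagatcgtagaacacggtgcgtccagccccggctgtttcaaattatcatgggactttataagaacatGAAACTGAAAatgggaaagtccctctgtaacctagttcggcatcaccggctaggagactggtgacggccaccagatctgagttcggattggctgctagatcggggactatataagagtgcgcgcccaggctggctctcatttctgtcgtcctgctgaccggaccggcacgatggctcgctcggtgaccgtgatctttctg
Tap1, chr20:4668630-4668689, minus strand: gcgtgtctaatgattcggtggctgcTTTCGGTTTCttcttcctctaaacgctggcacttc
Tap2, chr20:4652303-4652362, minus strand: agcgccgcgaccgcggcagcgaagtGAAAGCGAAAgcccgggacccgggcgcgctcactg

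The motif was present in 4 of the 8 windows (Psmb8, Tap1, Tap2 and B2m), against 3.92% of the 33469 windows of the same length. In Psmb8 it lay across the start of the gene. The windows of Psmb9, Cd74, Irf1 and Mx1 did not hold this run of letters. A match describes the letters and was not tested as a binding site.

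Several samples stood apart by measures that use no injury comparison, and were chosen with earlier results of these data known. A score of region markers (brainstem and raphe genes minus cortex genes, mean log2) lay between 2.19 and 3.22 in 39 raphe samples and between -3.07 and -2.31 in 40 cortex samples. The library labelled sham raphe at 3 months, replicate 1, scored -2.77, within the cortex range, and the library labelled sham cortex at 3 months, replicate 1, scored 0.49, between the regions. Replicate 2 of sham cortex at 14 d and replicate 2 of injured cortex at 7 d had a raised floor of dim signals (5th percentiles of 57.0 and 31.3). Replicate 1 of injured raphe at 4 h had a ratio of 3′ to 5′ actin signal of 29.1, a sign of degraded RNA. Results that rest on these 5 samples are given with and without them.

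Few differences between injured and sham samples were called for the 9 genes, with 2 sham samples for every time. The samples were compared as the mean of the 6 times. In the raphe 1 of the 9 was called, against 0.946% of all probe sets tested. This was Psmb8, higher in injured than sham raphe, and sham raphe was itself called lower than naive raphe for this gene. In the cortex none of the 9 was called by limma, against 0.133% of all, and 3 had an unadjusted p under 0.05 (Tap1, Tap2 and Mx2, lower after injury). The median of the 9 differences was 0.07 in the raphe and -0.06 in the cortex, and that of all probe sets -0.0010 and -0.0026. Without the 5 samples 2 were called in the raphe (Psmb8 and Mx1), where the share of all probe sets called was then 4.73%, and 0 in the cortex.

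**Figure D1:**
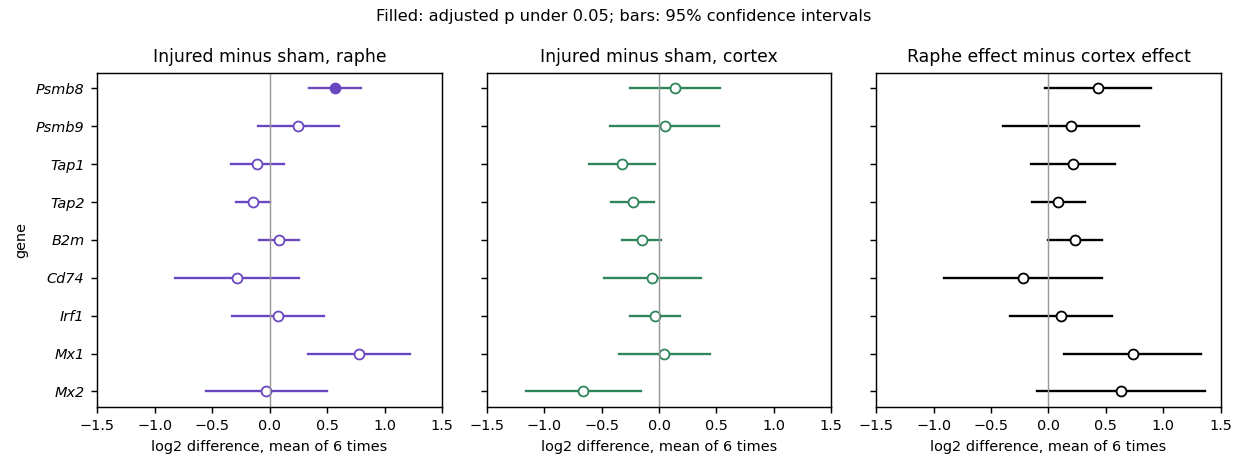
Injured minus sham, as the mean of 6 times, for each of the 9 genes in raphe and cortex, and the difference between the 2 effects (log2 difference on the x axis; points are fitted differences, bars 95% confidence intervals, filled points an adjusted p under 0.05). Psmb8 in the raphe is the single filled point, at 0.57, and in the right panel 8 of 9 points lie above 0 with none filled.

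Psmb8, the immunoproteasome subunit with chymotrypsin-like activity, was the gene with the largest injured against sham difference in signal relative to its error. In naive raphe its signal was 551.5, 405.5, 397.5 and 376.7. In sham raphe it ran from 75.0 to 399.1 with a median of 224.3 (n = 11), and in injured raphe from 164.4 to 509.7 with a median of 368.0 (n = 24). Injured samples thus lay mostly above sham samples with a wide overlap, and all 11 sham samples lay below the naive mean. At 7 d the sham samples read 78.4 and 75.0, and the injured samples 377.9, 380.6, 406.1 and 332.3, with no overlap. These injured samples were close to the lower naive values, while both sham samples were far below every naive sample.

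As the mean of the 6 times Psmb8 was higher by 0.57 ± 0.11 in injured raphe (1.48-fold, adjusted p = 0.0095), with 18 of 24 injured samples above the sham mean of their time. At 7 d the difference was 1.90 ± 0.26 (3.73-fold, adjusted p = 5.5e-04), when 0.801% of all probe sets were called. Averaged over the other 5 times it was 0.30 and not called (adjusted p = 0.36), so the call over the 6 times rests on 7 d. Sham raphe was lower than naive raphe by -0.93 ± 0.17 (adjusted p = 0.0057, 11 of 11 sham samples below the naive mean, 1.35% of all probe sets called), and injured raphe differed from naive by -0.36 ± 0.16 (adjusted p = 0.23). Psmb8 was called in each of these 3 comparisons whichever library was left out, except that no 6-time value could be had on type A without replicate 2 of sham raphe at 3 months, the only sham of that time.

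**Figure D2:**
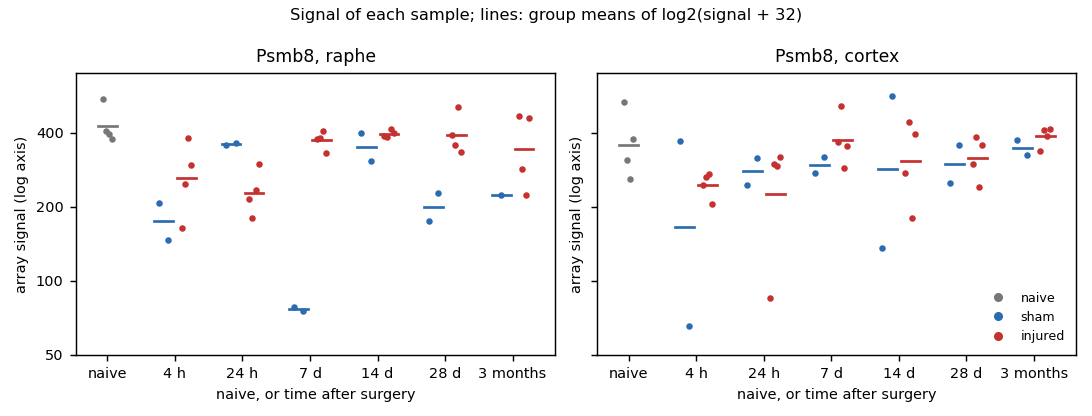
Psmb8 signal of each sample (log axis) in naive rats and at each time after surgery, in raphe and cortex, with lines at the group means of log2(signal + 32). In the raphe the 2 sham samples at 7 d, at 78.4 and 75.0, lie far below the 4 injured samples, between 332.3 and 406.1.

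The other Psmb8 probe set did not show these differences. On 4 of 39 raphe arrays it ranked above the 40th percentile and was thus near the floor. At 7 d it read 85.1 and 142.8 in sham raphe and 69.9, 76.4, 182.0 and 62.2 in injured raphe, and the groups overlapped. Its differences were 0.26 ± 0.19 over the 6 times (adjusted p = 0.56), -0.23 at 7 d (adjusted p = 0.92) and -0.11 for sham against naive (adjusted p = 0.93). In the cortex, Psmb8 by its brighter probe set ran from 65.4 to 567.5 in sham (median 318.7, n = 12) and from 84.7 to 517.0 in injured samples (median 308.0, n = 24). The cortex groups overlapped over almost their whole range, and the difference of 0.14 ± 0.19 was not called (adjusted p = 0.83).

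Psmb9, the partner subunit that takes the place of the caspase-like constitutive subunit, was not called over the 6 times in either region. In the raphe it ran from 41.4 to 415.8 in sham (median 255.9, n = 12) and from 31.1 to 498.5 in injured samples (median 292.6, n = 24). The difference of 0.25 ± 0.17 was not called (adjusted p = 0.54). The widest gap was at 14 d, with 195.3 and 193.3 in sham and 336.0, 498.5, 394.5 and 445.2 in injured raphe, where all 4 injured samples were above both sham samples. That difference of 0.98 ± 0.42 was not called over all samples (adjusted p = 0.67), and was called without the 5 samples, none of which is in these 2 groups (0.98 ± 0.22, adjusted p = 0.049, 0.227% of all called). The lowest raphe values, 31.1 and 41.4, belonged to the injured library at 4 h and the sham library at 3 months that stood apart. At 3 months the raphe difference was 1.10 ± 0.42 (adjusted p = 0.30) with that sham library, and 0.05 without it (adjusted p = 0.999). With it as the only sham sample of that time the difference was 2.16 and called (adjusted p = 0.0027). In the cortex the difference was 0.05 ± 0.23 (adjusted p = 0.96). At 4 h sham cortex read 62.1 and 46.9 and injured cortex 157.1, 184.4, 228.4 and 169.1, a difference of 1.32 ± 0.57 that was not called (adjusted p = 0.55). Of the 3 other Psmb9 probe sets, 1 gave a larger raphe difference over the 6 times (0.82 ± 0.24, adjusted p = 0.082) and the others 0.15 and 0.07. Psmb5, the constitutive subunit that Psmb8 replaces, was not called over the 6 times or at 7 d in either region, with a raphe difference over the 6 times of -0.16 ± 0.08 (adjusted p = 0.34).

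**Figure D3:**
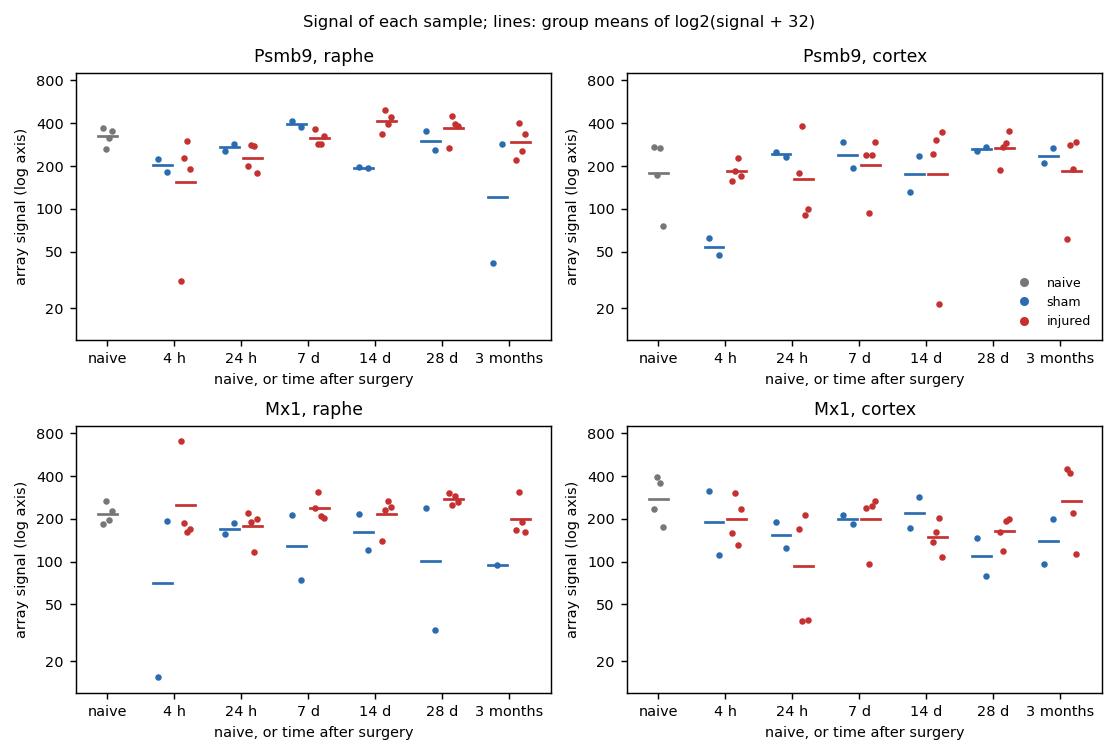
Psmb9 and Mx1 signal of each sample (log axis) in naive rats and at each time after surgery, in raphe and cortex, with lines at the group means of log2(signal + 32). Psmb9 in the raphe at 14 d is at 195.3 and 193.3 in sham and between 336.0 and 498.5 in injured samples, and Mx1 in sham raphe reaches down to 15.3 and 33.2, with a single sham sample at 3 months.

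Neither transporter gene, Tap1 or Tap2, was called in either region. Tap1 ran from 435.9 to 1032 in sham raphe (median 573.5, n = 11) and from 363.2 to 771.4 in injured raphe (median 580.0, n = 24), and the 2 ranges overlapped. Its raphe difference was -0.11 ± 0.11 (adjusted p = 0.72). All 11 sham raphe samples and 22 of 24 injured ones were above the naive mean of Tap1. Neither difference from naive was called (sham 0.50 ± 0.18, adjusted p = 0.16; injured 0.39 ± 0.16, adjusted p = 0.20). In the cortex Tap1 was 144.3 to 898.9 in injured samples (median 478.5) and 418.9 to 888.8 in sham samples (median 565.2), with 19 of 24 injured samples below the sham mean of their time. The cortex difference was -0.32 ± 0.14 (adjusted p = 0.38). Its dimmer probe set, above the 40th percentile on 4 of 40 raphe arrays, gave 0.44 ± 0.14 in the raphe (adjusted p = 0.11), opposite in sign to the brighter one.

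Tap2, the partner of Tap1 in the transporter, varied little within groups, with an SD of 0.21 (log2, n = 24) in injured raphe. It ran from 279.1 to 439.3 in sham raphe (median 383.8, n = 11) and from 261.2 to 465.2 in injured raphe (median 330.0, n = 24). In the cortex it ran from 284.0 to 543.8 in sham (median 371.7, n = 12) and from 218.4 to 478.3 in injured samples (median 316.0, n = 24). Injured samples were thus slightly below sham samples in both regions, with overlap. The differences were -0.15 ± 0.07 in the raphe (16 of 24 below the sham mean of their time, adjusted p = 0.35) and -0.23 ± 0.09 in the cortex (18 of 24, adjusted p = 0.30).

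B2m, the class I light chain, had a median rank at the 98.2th percentile of the raphe arrays and the 96.9th of the cortex arrays, and small injury differences. In the raphe it was 5815 to 10373 in sham (median 7891, n = 12) and 6790 to 10899 in injured samples (median 8289, n = 24). In the cortex it was 4424 to 8925 in sham (median 5724, n = 12) and 3338 to 6349 in injured samples (median 5405, n = 24). Sham and injured samples overlapped in each region. The injury differences were 0.08 ± 0.09 in the raphe (95% interval -0.09 to 0.26, adjusted p = 0.71) and -0.15 ± 0.08 in the cortex (-0.32 to 0.02, adjusted p = 0.51). The highest cortex value, 8925, belonged to the sham cortex library at 3 months that scored between the regions.

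Cd74, the class II invariant chain, depended on the probe set. By its brightest probe set, on type C, it ran from 749.4 to 3523 in sham raphe (median 2195, n = 12) and from 652.7 to 12401 in injured raphe (median 1864, n = 24). The value of 12401 came from the injured library at 4 h with a high actin ratio, and without the 5 samples the highest was 3273. The injury difference was -0.28 ± 0.27 in the raphe (adjusted p = 0.67) and -0.06 ± 0.21 in the cortex (adjusted p = 0.94). The 5 other probe sets of Cd74 all gave positive raphe differences, from 0.36 to 0.93, none of them called (lowest adjusted p = 0.14).

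Irf1, the transcription factor, differed by 0.07 ± 0.20 in the raphe (95% interval -0.33 to 0.48, adjusted p = 0.90) and by -0.03 ± 0.11 in the cortex (-0.25 to 0.18, adjusted p = 0.94). It ran from 240.5 to 630.2 in sham raphe (median 428.9, n = 11) and from 74.0 to 778.6 in injured raphe (median 448.2, n = 24). The value of 74.0 came again from the injured raphe library at 4 h that stood apart. In cortex, Irf1 was 265.9 to 602.8 in sham (median 476.7, n = 12) and 280.3 to 659.2 in injured samples (median 438.8, n = 24). The groups overlapped in both regions.

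Mx1 had the largest raphe injury difference of the 9 genes, but a low signal, with a median rank at the 48.5th percentile of the raphe arrays, near the 40th percentile that the filter used. Mx1 had no other probe set as a check. It was 184.0, 269.7, 196.1 and 225.9 in naive raphe. Sham raphe samples ran from 15.3 to 239.2 (median 156.3, n = 11) and injured ones from 116.7 to 702.6 (median 215.9, n = 24). Injured samples lay near the naive level, and the sham samples spread below it. The difference was 0.78 ± 0.22 (1.72-fold, 22 of 24 injured samples above the sham mean of their time, adjusted p = 0.069). It was called without the 5 samples (0.70 ± 0.19, adjusted p = 0.032), and without replicate 1 of injured raphe at 4 h alone (0.70, adjusted p = 0.028), which held the highest value, 702.6. The difference was 0.95 without replicate 1 of sham raphe at 28 d and 0.97 without replicate 2 of sham raphe at 4 h. Each of these left a low sham value, 33.2 and 15.3, as the only one of its time. With 1 library left out in turn the difference ran from 0.59 to 0.97, and it was not called in 36 of 39 cases. Injured raphe and naive raphe differed in Mx1 by 0.04 ± 0.31 (adjusted p = 0.97), and sham raphe was below naive by -0.74 ± 0.34 (10 of 11 samples below the naive mean, adjusted p = 0.31). In the cortex Mx1 was 78.9 to 315.5 in sham (median 178.4, n = 12) and 38.2 to 448.6 in injured samples (median 182.2, n = 24), a difference of 0.05 ± 0.20 (adjusted p = 0.95).

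Mx2 was lower after injury in the cortex than in sham samples without reaching the threshold. Mx2 was near the floor there, with a median rank at the 32.9th percentile and 10 of 41 cortex arrays above the 40th. It ran from 29.7 to 514.8 in sham cortex (median 201.4, n = 12) and from 13.6 to 338.6 in injured cortex (median 136.0, n = 24). The groups overlapped, and 19 of 24 injured samples were below the sham mean of their time. The difference was -0.66 ± 0.25 (adjusted p = 0.29). It was -1.88 ± 0.60 at 24 h (adjusted p = 0.38) and -1.53 ± 0.60 at 3 months (adjusted p = 0.16), and 0.95 at 7 d, where sham cortex read 29.7 and 35.8. In the raphe it was 38.7 to 634.6 in sham (median 260.0, n = 12) and 45.6 to 747.3 in injured samples (median 301.4, n = 24), with a difference of -0.03 ± 0.26 (adjusted p = 0.98).

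Few of the genes were called at any single time. In the raphe 0 of 9 were called at 4 h (0.15% of all probe sets), 0 at 24 h (0.00534%), 1 at 7 d, 0 at 14 d (0.0374%), 0 at 28 d (0% of all) and 0 at 3 months (0.614%). In the cortex 0 of 9 were called at 4 h (0.016% of all), 24 h (0.0426%), 7 d (0.368%), 14 d (1.81%), 28 d (0%) and 3 months (2.47%). The numbers of genes with an unadjusted p under 0.05, in the order of the times, were 1, 1, 3, 2, 2 and 2 in the raphe and 1, 1, 2, 1, 0 and 2 in the cortex. At 24 h all 9 genes were lower in injured than in sham cortex, from -0.09 for B2m to -1.88 for Mx2, with a median of -0.31 beside -0.0125 for all probe sets, and none was called. The number below 0 fell to 8 without replicate 1 of the injured samples, whose type A array is described with another time (Psmb8 then at 0.10, with the other 3 injured samples above the sham mean). It was also 8 without injured replicate 3 or sham replicate 1 (Cd74 at 0.06 and 0.15) and without sham replicate 2 (Tap2 at 0.10). The F test over the 6 injured groups called 0 of 9 in the raphe (0.486% of all, 4 with an unadjusted p under 0.05, lowest adjusted p = 0.13 for Psmb8) and 0 of 9 in the cortex (1.1% of all, 2 with an unadjusted p under 0.05, lowest adjusted p = 0.16 for Tap1). Without the 5 samples the raphe F test called Psmb9 (adjusted p = 0.034), when 4.4% of all were called.

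**Figure D4:**
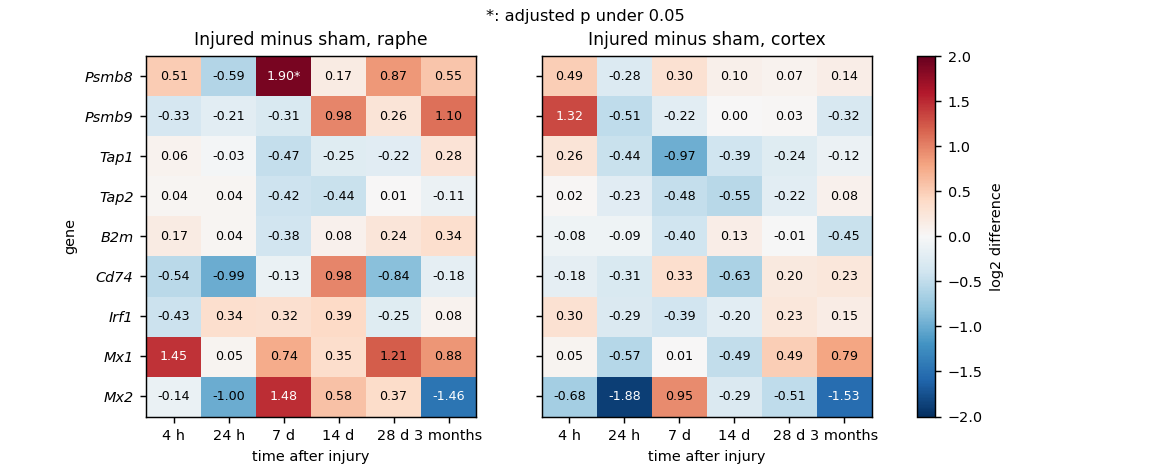
Injured minus sham at each of the 6 times for the 9 genes in raphe and cortex; colour and number give the log2 difference, and a star an adjusted p under 0.05. Psmb8 in the raphe at 7 d, at 1.90, is the single starred cell, and the cortex column at 24 h is below 0 for all 9 genes, and for 8 of them without replicate 1 of its injured samples.

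Against naive samples, injured raphe had 0 of 9 called (3.05% of all, 2 with an unadjusted p under 0.05), and injured cortex 0 of 9 (2% of all, 1 with an unadjusted p under 0.05). Sham against naive called 1 of 9 in the raphe, Psmb8, and 0 of 9 in the cortex (0.49% of all, 1 with an unadjusted p under 0.05). In the cortex all 24 injured samples were below the naive mean of B2m, and that difference of -0.30 ± 0.13 was not called (adjusted p = 0.22).

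The injury effect was then compared between the regions in fits of both regions together. None of the 9 genes was called for raphe minus cortex effect over the 6 times by limma, when 0.0201% of all probe sets were, and 1 had an unadjusted p under 0.05 (Mx1). The estimate was above 0 for 8 of the 9, with a median of 0.21 beside 0.0081 for all probe sets. Mx1 had the largest value, 0.73 ± 0.30 (95% interval 0.14 to 1.33, adjusted p = 0.47). Mx2 followed with 0.63 ± 0.37 (-0.10 to 1.36, adjusted p = 0.68) and Psmb8 with 0.43 ± 0.23 (-0.03 to 0.89, adjusted p = 0.64). For B2m the value was 0.23 ± 0.12 (-0.0020 to 0.47, adjusted p = 0.60), for Tap1 0.21 ± 0.18 (-0.15 to 0.58, adjusted p = 0.81) and for Psmb9 0.20 ± 0.30 (-0.39 to 0.79, adjusted p = 0.91). Irf1 gave 0.11 ± 0.22 (-0.34 to 0.55), Tap2 0.08 ± 0.12 (-0.15 to 0.31) and Cd74 -0.22 ± 0.34 (-0.91 to 0.47). The intervals of Mx1, Mx2 and Psmb8 reach from near or below 0 to beyond 0.8, so a large difference between the regions was neither found nor bounded tightly for these genes.

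At the single times 0 of 9 were called for the difference between regions. The shares of all probe sets called were 0% at 4 h, 0% at 24 h, 0.0151% at 7 d, 0.292% at 14 d, 0% at 28 d and 0.916% at 3 months, and 1, 0, 1, 0, 0 and 1 of the 9 had an unadjusted p under 0.05. Psmb8 at 7 d had 1.60 ± 0.55 (adjusted p = 0.68), Psmb9 at 4 h -1.65 ± 0.72 (adjusted p = 0.43) and B2m at 3 months 0.79 ± 0.29 (adjusted p = 0.20). The 3 month value of B2m includes both libraries of that time whose markers went against their labels. It was 0.33 ± 0.33 without the 5 samples (adjusted p = 1). It was called without replicate 2 of sham cortex (1.05, adjusted p = 0.047) or replicate 2 of sham raphe (1.00, adjusted p = 0.048) at 3 months, each of which leaves 1 of those libraries as the only sham sample of its region. Without replicate 2 of sham raphe Psmb9 at 3 months was called too (2.48, adjusted p = 0.042), against 1.42 with all samples (adjusted p = 0.44) and 0.52 without the 5 (adjusted p = 1). Psmb8 at 7 d was 1.74 (adjusted p = 0.30) and Psmb9 at 4 h -1.13 (adjusted p = 0.67) without the 5.

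The levels of the genes in the 2 regions, apart from injury, were compared in naive samples, and in injured samples in a comparison added after the data had been seen. In bulk tissue, fewer cells of a type and less RNA per cell cannot be told apart. In naive samples 0 of the 9 were called, when 13.9% of all probe sets were, with no unadjusted p under 0.05. In injured samples, with 24 a region, 4 of the 9 were called, all higher in the raphe, which is near the share of all probe sets called, 47.2%. B2m was higher by 0.67 ± 0.07 (1.59-fold, adjusted p = 7.5e-13), and all 24 injured raphe samples were above all 24 injured cortex samples. Mx2 was higher by 1.04 ± 0.21 (2.06-fold, adjusted p = 3.1e-05), Psmb9 by 0.48 ± 0.17 (1.40-fold, adjusted p = 0.016) and Tap1 by 0.29 ± 0.10 (1.22-fold, adjusted p = 0.016). The Mx2 signal was near the floor in the cortex, above the 40th percentile on 10 of 41 arrays. Psmb8, Tap2 and Irf1 differed by 0.09 ± 0.13, 0.02 ± 0.06 and -0.02 ± 0.12, and Mx1 by 0.33 ± 0.17 (adjusted p = 0.10), none of them called. Without the 5 samples 4 were called again, when 52.7% of all were.

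The probe sets of 1 gene did not always give the same region difference. The 3 other B2m probe sets gave 0.35 to 0.53 in injured samples, each called. The other Mx2 probe set gave 0.02 ± 0.17 (adjusted p = 0.93), against 1.04 for the brighter one. The other Psmb8 probe set gave 0.60 ± 0.18 (adjusted p = 0.0046), against 0.09. Cd74 differed most between its probe sets. Its 2 type C probe sets gave -0.28 ± 0.20 and -0.14 ± 0.24, neither called, and its 4 type A probe sets gave 1.08 to 1.72, all called. The 2 at the ends of that range were near the floor in the cortex, above the 40th percentile on 0 of 43 arrays. They passed the filter through raphe arrays alone (6 and 27 of 40). The other 2, at 1.33 and 1.37, were above it on 26 and 37 of 43 cortex arrays. By the brightest of the type A probe sets Cd74 was 535.0 to 735.6 in naive raphe (median 693.6, n = 4) and 202.5 to 366.2 in naive cortex (median 239.2, n = 4), with no overlap, a difference of 1.27 ± 0.37 (adjusted p = 0.012). In injured samples the same probe set was 211.9 to 1188 in raphe (median 715.4, n = 24) and 93.0 to 428.8 in cortex (median 247.8, n = 24), a difference of 1.37 ± 0.15 (adjusted p = 1.1e-11).

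**Figure D5:**
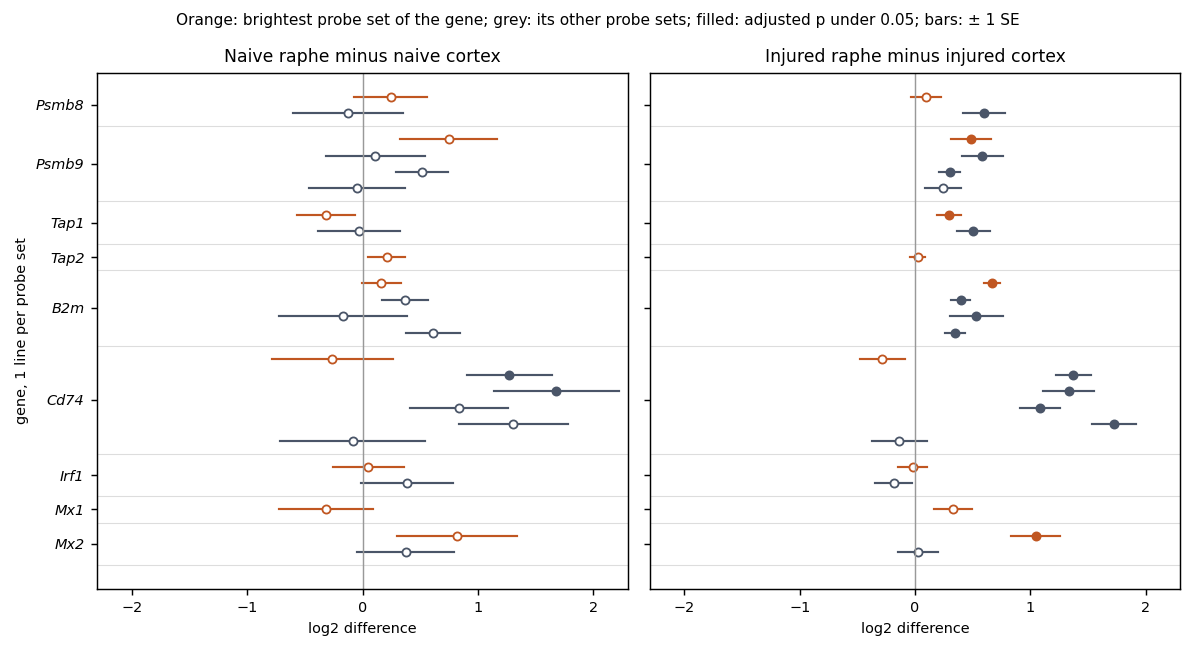
Raphe minus cortex in naive samples and in injured samples for all 24 probe sets of the 9 genes (log2 difference on the x axis, bars ± 1 standard error, filled points an adjusted p under 0.05, orange the brightest probe set of a gene). The B2m probe sets lie between 0.35 and 0.67 in injured samples, while the Cd74 probe sets split between -0.28 and -0.14 on type C and values from 1.08 to 1.72 on type A. The Cd74 values of 1.08 and 1.72 come from probe sets above the 40th percentile on 0 of 43 cortex arrays.

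Other genes of the pathway were called about as seldom as all probe sets over the 6 times. Of 76 further genes of class I and class II presentation, interferon signalling, interferon induction and the constitutive proteasome that were tested in each region, 0 were higher and 1 was lower in injured than sham raphe: Cd40, a co-stimulatory receptor of antigen-presenting cells, by -0.69 ± 0.16 (adjusted p = 0.034), beside 0.946% of all probe sets called. In the cortex 0 were called over the 6 times, and 0 of 80 differed between the regions in the injury effect, over the 6 times or at any time. Irf7, a transcription factor of the type I interferon response, was lower than naive in both sham (-0.74 ± 0.19, adjusted p = 0.044) and injured raphe (-0.70 ± 0.18, adjusted p = 0.026). Among the class I genes 15 of 17 tested had a positive raphe difference, none of them called, with a median of 0.10. The median was 0.03 over all 76 genes and -0.0010 over all probe sets, and the count of signs was not tested. In the cortex at 14 d 1 of the 76 was called higher and 2 lower, beside 1.81% of all probe sets called. The class II genes RT1-Bb (-1.30) and RT1-DOa (-0.85) were lower and the protease Ctsb (0.77) higher. At 3 months 2 of the 76 were called higher and 1 lower, beside 2.47% of all. Ifitm3, an interferon-induced membrane protein, was higher (0.81 ± 0.15, adjusted p = 0.0049), with RT1-DMa (0.80) higher and the protease Ctsd (-0.92) lower. Without the 5 samples, of which 1 is a sham cortex sample at each of these 2 times, none of these 6 was called. The differences were then 0.70 for Ifitm3 and 0.93 for RT1-DMa, about as large as before, and -0.56 for RT1-Bb, -0.40 for RT1-DOa, 0.46 for Ctsb and -0.43 for Ctsd. Without them the raphe had 1 higher (Ifitm3, 0.30, adjusted p = 0.016) and 2 lower (Cd40, -0.72, and Cxcl9, -0.39) of 73 over the 6 times, when 4.73% of all probe sets were called. In that fit Ifitm3 was also called lower in sham than naive raphe (-0.44 ± 0.12, adjusted p = 0.030). At 7 d the raphe had 6 higher and 1 lower of 73, a larger share than the 4.71% of all probe sets called. The 6 with the smallest p were Ctss (0.71), RT1-M3-1 (0.86), RT1-S3 (0.93), Calr (0.97), Irf9 (0.96) and Cd40 (-1.37). With all samples 0 of 76 were called at 7 d. None of the 5 samples is in the raphe groups of that time, so the estimate of the spread changed there and not the group means.

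Over time in injured cortex, 2 of these 76 genes were called by the F test, beside 1.1% of all probe sets. They were Ifitm3 (adjusted p = 8.7e-04) and Irf8, a factor of microglia and myeloid cells (adjusted p = 0.012). Both stayed called without the 5 samples (0.0018 each), when Ctsl was called too (0.0076) and 2.2% of all were. In injured raphe the F test called 0 of 76 (0.486% of all). Without the 5 samples it called 4 of 73 there (Irf3, Irf7, Pias1 and Ptpn11), when 4.4% of all were called. In naive rats 11 of 80 were higher in the raphe and 1, the kinase Jak2, was lower, a share near the 13.9% of all probe sets called. The 6 with the smallest p of the 12 were Ifnar1, a chain of the type I interferon receptor (0.99 ± 0.15), Ctsd (1.14 ± 0.17), Ifitm10 (2.27 ± 0.38), Wars1 (0.71 ± 0.18), Psmb7 (0.82 ± 0.21) and the class I gene RT1-CE12 (0.48 ± 0.14). In injured samples 27 of 80 were higher and 10 lower in the raphe, near the 47.2% of all called.

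Cell type markers were read beside these values. Of 20 microglia and macrophage markers tested, 0 were called over the 6 times in the raphe and 1, Aif1, in the cortex (0.63 ± 0.10, adjusted p = 0.0058). P2ry12, a receptor of resting microglia, was called higher in the raphe without the 5 samples (0.42 ± 0.10, adjusted p = 0.013), when 4.73% of all probe sets were called. Aif1, the microglial calcium-binding protein Iba1, was higher by 2.79 ± 0.25 in injured cortex at 7 d (adjusted p = 2.5e-08), a time at which none of the 9 genes was called there. Aif1 was also called lower in sham than in naive cortex, with all samples and without the 5 (-0.93 ± 0.17 without them, adjusted p = 0.0089). The summed signal of 22 such markers ran from 14073 to 18862 in sham raphe and from 14597 to 22473 in injured raphe. None of 10 lymphocyte markers tested was called over the 6 times in the raphe. Without the 5 samples Gzmb, a protease of cytotoxic lymphocytes, was called lower (-0.39 ± 0.07, adjusted p = 0.0034), beside the same 4.73% of all. In that fit Gzmb was also called higher in sham than naive raphe (0.42 ± 0.11, adjusted p = 0.025). Of 10 blood cell markers 6 were lower in sham than naive raphe, among them the globin gene Hba-a1 (-0.88 ± 0.16), in the comparison in which Psmb8 was lower. Summed meninges and fibroblast markers ran from 20737 to 28047 in 3 naive raphe samples and from 13030 to 17982 in 11 sham samples, with no overlap and 0 of 11 markers called. Summed microglia and macrophage markers ran from 17665 to 18954 in naive raphe, above the sham median of 16006. At 7 d Hba-a1 was lower in injured than sham raphe (-1.13 ± 0.25, adjusted p = 0.021), where Psmb8 was higher. It was the only blood marker called there. Without the 5 samples Hbb-bs was called higher in injured than sham raphe over the 6 times (0.42 ± 0.12, adjusted p = 0.046). Gp9 was then called higher in sham than naive raphe (1.32 ± 0.34, adjusted p = 0.020), when 6.12% of all probe sets were called. The summed signal of the 10 blood markers was 105827 and 119740 in sham raphe at 7 d and 53223 to 73386 in injured raphe, and 126318 to 145096 in naive raphe. The part of these markers in the Psmb8 values was not tested. The region markers matched the labels in naive samples, with 12 of 15 brainstem and raphe markers higher and 10 of 10 forebrain markers lower in the raphe.

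Across samples, after the mean of each region was subtracted, the 36 pairs of the 9 genes had Pearson correlations of log2 values from -0.22 to 0.31 with a median of 0.03. The highest was that of Psmb9 and Irf1 (0.31), which was 0.085 without the 5 samples. Psmb9 and B2m had 0.30 (0.25 without the 5 samples), Psmb8 and Psmb9 0.29 (0.28) and Tap1 and Tap2 0.29 (0.27). These are descriptions over 79 to 83 samples that share arrays and scaling, and carry no test. The genes whose pattern was most like Tap1 over 83 samples were Colq (r = 0.71), Thra (0.66) and COX3 (0.65). For B2m they were Rrbp1 (0.65), Cttn (0.61) and Btf3 (0.61) over 81 samples, and for Psmb8 Hilpda (0.49), Szrd1 (0.49) and Eva1b (0.46) over 79 or 80 samples. Psmb9 was most like Sema6d (0.57), Tbc1d12 (0.55) and Epb41l3 (0.55), and Tap2 like Snx21 (0.61), Foxo1 (0.55) and Nmbr (0.52). Cd74 was most like Mettl13 (0.61), Sgk2 (0.61) and Eif3d (0.56), and Irf1 like Vps35 (0.59), Paip2 (0.58) and Gpbp1 (0.57). Mx1 was most like Dlgap4 (0.50), Ins1 (0.50) and Odc1 (0.47), and Mx2 like Ahdc1 (0.43), Afg1l (0.42) and Nmrk1 (0.42). No gene of the pathway lists was among these 27.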

How the data were processed

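Gene expression was measured on 3 types of rat array in 84 samples. The deposited values are intensity values on a linear scale, 1 signal per probe set, scaled by the authors so that every array's 2% trimmed mean lay between 800.5 and 801.3. Not given in the sources used here is the software behind them. The deposited scaling was kept, 32 was added and the log2 taken. Probe sets were named through the platform annotation (18178 with 1 symbol, 391 with several, 7633 with none).

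Tests covered probe sets ranked above the 40th percentile on 4 or more arrays in a fit, without controls. The limma package, version 3.58.1 (R 4.3.3, with statmod 1.5.0), fitted a mean per group for every array type, by region and over both regions, with moderated two-sided tests and Benjamini-Hochberg adjustment over the 3 types together. Each time was weighted equally. The scripts were tested on simulated data.

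The 9 genes, the gene lists and the 5 samples left out as an alternative were chosen with earlier results of these data known. Named were all 9 genes, pathway genes past the threshold (at most 6 a comparison, by p) and, for each gene, the 3 genes most correlated with it. Injured raphe against injured cortex, and the mean without 7 d, were added after the data were examined. Titles gave the groups and were followed where 3 descriptions gave another time. The replicate numbers did not pair samples (mean correlation of same-numbered deviations 0.015 in raphe and 0.024 in cortex). No arrays held identical values. Alternatives were quantile normalization, other filters, another added number, array weights, a replicate block, single samples or the 5 left out, naive samples as controls and the other probe sets.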

Additional observations from a re-analysis of the deposited data

Results flagged for a closer look

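Of the 125 groups of 4 samples examined for the 9 genes, 9 held a sample whose gap to the nearest other sample took most of the range of its group (Dixon's 95% criterion), where chance flags about 1 in 20 groups. Of the samples that stood apart for other reasons, replicate 1 of injured raphe at 4 h was high in Mx1 (signal 702.6, the others 161.3 to 186.1) and replicate 2 of injured cortex at 7 d was low in Mx1 (97.2, the others 238.3 to 267.2). Injured cortex at 24 h held a low Psmb8 value in replicate 1 (84.7, the others 294.3 to 317.8), on an array whose description gives another time, and a low Tap1 value in replicate 3 (174.8, the others 413.4 to 480.5). Replicate 3 of injured cortex at 14 d was low in Psmb9 (21.3, the others 242.1 to 350.0). Replicate 2 of injured raphe at 24 h was high in Tap1 (679.3, the others 458.7 to 488.9), and replicate 4 of injured raphe at 14 d was high in Tap2 (376.0, the others 261.2 to 264.6). Irf1 was low in replicate 2 of injured raphe at 3 months (396.1, the others 480.3 to 495.1) and in replicate 1 of naive cortex (276.9, the others 380.8 to 397.2).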

How the results depend on the processing

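Quantile normalization, either other filter and another number added before the log left the number of the 9 genes called within 1.5 times in every comparison. For injured against sham raphe over the 6 times, 1 gene was called; the number was 2 with array weights (1538 probe sets called in all), 0 with the replicate number as a block (Psmb8 0.51), 2 without the 5 samples, 0 with naive samples as controls and 0 without 7 d. At the single times in the raphe 2 calls were made in place of 1, both of Psmb8 (7 d and 28 d) with array weights, and of Psmb8 and Psmb9 without the 5 samples. For the change over time in injured raphe it was 2 in place of 0 with array weights and 1 without the 5 samples. With 1 library left out in turn it was 1 to 2 over the 6 times in the raphe, 0 to 1 for the difference between regions at single times and 4 to 5 for injured raphe against injured cortex. These ranges leave out replicate 2 of sham raphe at 3 months where type A then had no value. Without it, on the types left, 2 genes were called for the difference between regions at 3 months (B2m and Psmb9) and Psmb9 in the raphe at 3 months. The replicate block changed no other call of the 9 genes, and the numbers did not pair samples. A random block across regions changed none of these counts. The causes were not tested.

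The following differences changed sign, among them the called Psmb8 values in the raphe. With naive samples in place of sham, the raphe values became -0.36 for Psmb8 (-0.18 at 7 d), -0.17 for Psmb9 and 0.39 for Tap1, and the cortex values -0.21 for Psmb8, 0.056 for Tap2, 0.25 for Irf1 and -0.60 for Mx1. The differences between regions became -0.15 for Psmb8, -0.26 for Psmb9, -0.19 for Tap2 and -0.071 for Irf1. With the replicate block the raphe values became -0.018 for Irf1 and 0.086 for Mx2. With array weights, Mx2 became 0.027 in the raphe, and injured raphe against injured cortex -0.016 for Tap2 and 0.11 for Irf1. With quantile normalization Irf1 became 0.019 in the cortex and 0.054 between injured regions. Without the 5 samples Cd74 became 0.053 in the cortex, and between injured regions Tap2 became -0.007 and Irf1 0.074. Without 7 d Irf1 became 0.037 in the cortex and -0.012 for the difference between regions.

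Other probe sets turned the raphe injury difference to 0.44 for Tap1, -0.10 for B2m, 0.11 for Mx2 and 0.36, 0.48, 0.51, 0.66 and 0.93 for Cd74. They turned the cortex difference to -0.26 and -0.30 for Psmb9, 0.050 and 0.064 for B2m, 0.089 and 0.18 for Cd74 and 0.012 for Irf1. The difference between regions became -0.16 for B2m and 0.17, 0.50, 0.57, 0.65 and 0.83 for Cd74. In naive samples raphe against cortex became -0.13 for Psmb8, -0.049 for Psmb9, -0.17 for B2m and 0.83, 1.27, 1.31 and 1.68 for Cd74, and in injured samples 1.08, 1.33, 1.37 and 1.72 for Cd74. Psmb8 in the raphe at 7 d became -0.23.

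Leaving out 1 library in turn gave values on both sides of 0 for Mx2 in the raphe (-0.20 to 0.15) and, in the cortex, for Psmb8 (-0.034 to 0.31), Psmb9 (-0.010 to 0.16), Cd74 (-0.22 to 0.10), Irf1 (-0.10 to 0.035) and Mx1 (-0.059 to 0.15). The same held for Irf1 between naive regions (-0.061 to 0.16) and, between injured regions, for Tap2 (-0.0036 to 0.042) and Irf1 (-0.069 to 0.075). Dim probe sets of Psmb8, Psmb9, Tap1, Cd74, Irf1 and Mx2, most of whose signals lay below the 40th percentile of their arrays, limit the check by a further probe set.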
